A study of Mus musculus with 4 samples.

Results

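Expression of 10 genes of the adrenal and gonadal primordium was examined in metanephric mesenchyme (MM) relative to intermediate mesoderm (IM) from mouse embryos aged 10.5 days post coitum (dpc). The genes were Nr5a1, Nr0b1, Mc2r, Star, Cyp11a1, Gata4, Gata6, Tcf21, Amhr2 and Upk3b, and every probe carrying one of these symbols in the platform annotation was taken. That gave 8 probes of 22702, 1 for each of 8 genes, on a platform with probes for 15096 named genes. Amhr2 and Upk3b had no probe under their symbols, so they have no expression values here and appear in the promoter windows alone. MM is the mesenchyme that gives rise to the nephrons, and IM is the mesoderm from which kidney, gonad and adrenal cortex derive. Per the labels, both tissues were primary tissue dissected from embryos of both sexes, without a stated strain or number of embryos, and were hybridised against each other on 4 two-colour oligonucleotide arrays. MM was channel 1 on arrays 1 and 2 and channel 2 on arrays 3 and 4, where the labels read "Metanephric mesoderm" and "Intermediate Mesenchyme", taken here as the same tissues.

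The adrenal cortex and the somatic gonad arise from a shared thickening of the coelomic epithelium beside the mesonephros, the adrenogonadal primordium, which is marked by the nuclear receptor Nr5a1. Nr5a1, also called steroidogenic factor 1, is needed for both organs to form, and it later binds and activates genes of steroid hormone synthesis. Nr0b1 encodes a related receptor without the usual DNA-binding domain, which acts on Nr5a1 target genes. The permanent kidney forms from mesenchyme at the caudal end of the same mesoderm.

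Promoter windows of the genes are shown first, because Nr5a1 recognises an extended form of the nuclear receptor core motif AGGTCA, and several of the genes are its known targets. The RefSeq table of GRCm38.p6 held 6 windows for 5 of the genes (Nr0b1, Cyp11a1, Tcf21, Amhr2 and Upk3b), each with 250 bases before and 50 after a transcription start. Nr0b1 is shown as the regulator whose ratio lay nearest to those of Nr5a1 and Mc2r, Cyp11a1 as the enzyme measured on all arrays, and Tcf21 as the mesenchymal factor. Capitals mark AGGTCA in Nr0b1 and Cyp11a1 and the GATA motif AGATAA in Tcf21.
Nr0b1, chrX:86191525-86191824, plus strand: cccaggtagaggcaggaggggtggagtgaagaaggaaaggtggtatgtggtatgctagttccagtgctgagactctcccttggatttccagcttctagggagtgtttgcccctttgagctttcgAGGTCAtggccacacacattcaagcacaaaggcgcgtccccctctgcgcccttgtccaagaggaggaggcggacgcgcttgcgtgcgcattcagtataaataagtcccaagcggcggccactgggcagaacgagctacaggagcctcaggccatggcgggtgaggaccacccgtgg
Cyp11a1, upstream start, chr9:57997774-57998073, plus strand: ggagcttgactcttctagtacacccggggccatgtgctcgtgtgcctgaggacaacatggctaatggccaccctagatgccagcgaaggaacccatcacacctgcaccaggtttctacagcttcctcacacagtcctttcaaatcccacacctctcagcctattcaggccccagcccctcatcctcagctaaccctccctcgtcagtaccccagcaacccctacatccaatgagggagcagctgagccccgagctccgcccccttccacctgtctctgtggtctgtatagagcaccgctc
Cyp11a1, downstream start, chr9:58014702-58015001, plus strand: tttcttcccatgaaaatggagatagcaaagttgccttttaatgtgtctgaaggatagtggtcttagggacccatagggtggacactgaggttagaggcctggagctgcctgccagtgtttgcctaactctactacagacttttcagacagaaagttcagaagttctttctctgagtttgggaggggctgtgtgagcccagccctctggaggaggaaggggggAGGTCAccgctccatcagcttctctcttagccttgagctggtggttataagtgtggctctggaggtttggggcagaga
Tcf21, chr10:22820094-22820393, minus strand: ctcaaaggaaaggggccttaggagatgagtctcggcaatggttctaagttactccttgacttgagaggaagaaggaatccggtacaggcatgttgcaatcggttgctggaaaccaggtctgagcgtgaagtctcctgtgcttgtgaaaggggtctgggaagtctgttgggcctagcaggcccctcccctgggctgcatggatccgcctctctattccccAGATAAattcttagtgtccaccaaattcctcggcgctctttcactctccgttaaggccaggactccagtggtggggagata

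AGGTCA, searched on both strands, was present in 4 of the 6 windows, against 16.3% of all 32851 windows of this length. Its first base lay 126 bases before the start in Nr0b1 and 28 bases before the downstream start of Cyp11a1. It lay 155 bases before the start in Upk3b and 230 bases before it in Amhr2, both genes without a probe. The longer form CAAGGTCA, which contains AGGTCA, was found in 1 of the 6 windows, that of Amhr2, against 1.56% of all windows. AGATAA was found in 1 window, 31 bases before the start of Tcf21, against 11.2% of all windows. These matches describe letters in a window and were not tested as binding sites. Several of the genes are known Nr5a1 targets and Cyp11a1 has more than 1 window, so the shares are not read as an enrichment.

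The deposited values are log2 ratios, and a negative value means lower in MM than in IM. This direction is the likely reading of the labels, which put MM first and state that arrays 3 and 4 were already reversed; which dye went into which channel is not given. The number of values was 21509 and 21599 on arrays 1 and 2, against 15812 and 16242 on arrays 3 and 4. Values at the table's lowest ratio, 0.01, which was read as a floor, numbered 8 to 16 on arrays 1 and 2 and 1672 to 1805 on arrays 3 and 4; no probe of the 8 stood at it. Across 13191 tested probes above the floor, Pearson's r across probes, which are not independent replicates, was 0.836 between arrays 1 and 2, 0.912 between arrays 3 and 4 and 0.113 to 0.274 between orientations. Six2 (3.00 ± 0.63) and Gdnf (1.92 ± 0.13), a transcription factor and a growth factor of kidney mesenchyme, were higher in MM (mean log2 ratio ± SD, n = 4, limma adjusted p = 0.0021 and 0.000762). Of 15 tested markers of MM, 7 were higher in MM, 5 did not pass and 3 were lower, Wt1 and 2 with values at the floor, beside 23.8% of all tested probes called higher and 38.1% lower. Called both with and without a term for channel orientation in the fit were 7 of the 15 as higher and 1 as lower, beside 13.6% and 14.4% of all tested probes.

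Of the 8 probes, 6 were measured on all 4 arrays and could be tested, and all 6 were called lower in MM. The background was high: of 14184 probes tested, 61.9% were called in either direction and 38.1% were called lower in MM (limma with a term for channel orientation, Benjamini-Hochberg adjusted p under 0.05). Without the orientation term 5 of the 6 were called lower, Cyp11a1 being the exception, against 14.4% of all tested probes called lower in both fits. Nr5a1, Mc2r and Nr0b1 were called in both fits and at least 2-fold lower in MM, a set that held 0.938% of all tested probes. Because the genes were chosen with earlier results of these data known, the shares given here are background and no test of the set. Values were negative on all 4 arrays for 5 of the 6 genes, as they were for 28.4% of all tested probes. The median log2 ratio of the 6 genes was -0.98, beside -0.082 over all tested probes. In whole tissue, fewer cells of a type and less RNA per cell cannot be told apart.

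Nr5a1, Mc2r and Nr0b1 had the lowest ratios of the 6 tested genes. Nr5a1 read -1.49 and -1.98 on arrays 1 and 2, then -1.67 and -1.57 on arrays 3 and 4. All arrays gave the same direction, and the orientations overlapped. The mean was -1.68 ± 0.22 (SD, n = 4), 3.20-fold lower in MM (limma adjusted p = 0.00189). A mean ratio at or below that of Nr5a1 was held by 6.01% of all 14184 tested probes, and by 0.0986% of the 13191 with no value at the floor.

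Nr0b1, the receptor that modulates Nr5a1, read -1.45 and -0.93 on arrays 1 and 2, then -1.51 and -1.34 on arrays 3 and 4. Array 2 was the least negative, and array 1 lay between the values of the other orientation. The mean was -1.31 ± 0.26 (SD, n = 4), 2.48-fold lower in MM (limma adjusted p = 0.00334). Nr5a1 and Nr0b1 differed by 0.497 and 0.517 between arrays 1 and 2, where the median absolute difference over the 13191 probes was 0.0952. Both differences were above that median, and array 2 was the lowest for Nr5a1 and the highest for Nr0b1.

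Mc2r encodes the receptor through which adrenocorticotropic hormone stimulates the adrenal cortex. It read -1.53 and -1.53 on arrays 1 and 2, then -1.84 and -1.81 on arrays 3 and 4. The repeats within an orientation differed by 0.00416 and 0.0255, and the ratio was lower on both arrays of the second orientation. The mean was -1.68 ± 0.17 (SD, n = 4), 3.20-fold lower in MM (limma adjusted p = 0.000271), with a fold of 2.89 on arrays 1 and 2 and 3.54 on arrays 3 and 4. The orientation coefficient of Mc2r also passed the threshold (0.295, limma adjusted p = 0.0258), as did that of 44.6% of all tested probes. Mrap, the accessory protein that carries Mc2r to the cell surface, averaged -0.48, with -0.20 and -0.14 on arrays 1 and 2, then -0.85 and -0.71 on arrays 3 and 4. It passed with the orientation term (limma adjusted p = 0.00317) and not without it (limma adjusted p = 0.1095). Its orientation coefficient of 0.61 (limma adjusted p = 0.0161) exceeded its mean in size. Mrap was named for its tie to Mc2r after its values were seen.

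**Figure D1:**
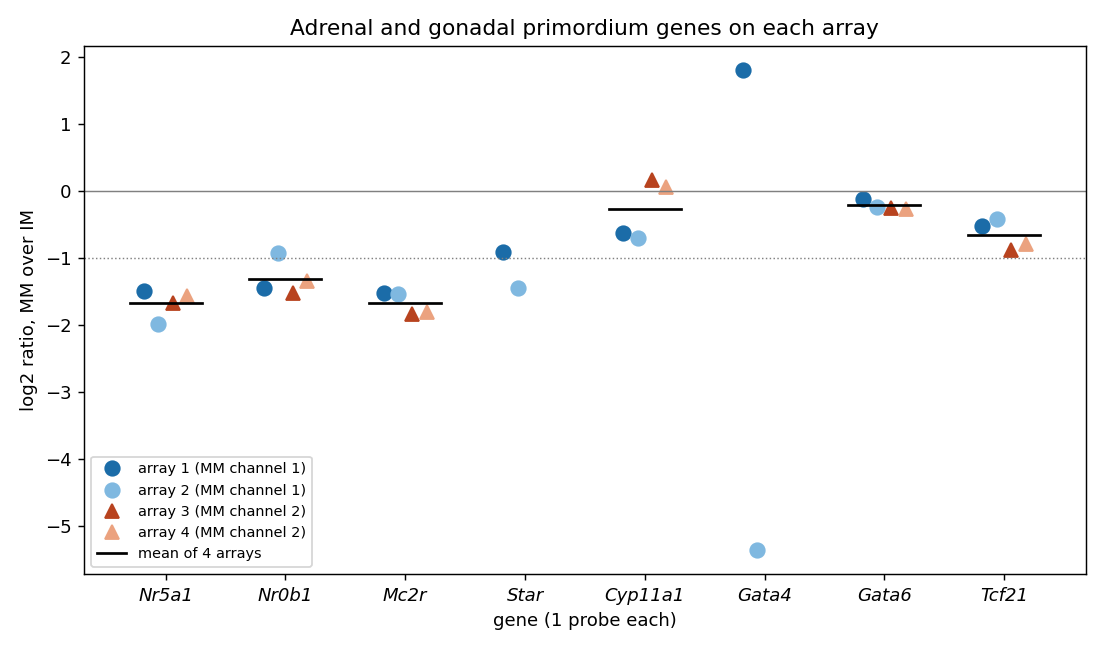
The log2 ratio of MM over IM (vertical axis) of each of the 8 measured genes (horizontal axis) on each array; circles are arrays 1 and 2 (MM in channel 1), triangles arrays 3 and 4 (MM in channel 2), bars the mean where all 4 arrays gave a value, and the dotted line a 2-fold lower level in MM. Nr5a1, Nr0b1 and Mc2r average -1.68, -1.31 and -1.68, Cyp11a1 changes sign between orientations, and Gata4 spans 1.81 to -5.36 on 2 arrays.

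The steroid synthesis genes among the 8 gave less settled ratios. Star, the protein that moves cholesterol into the mitochondrion, read -0.91 and -1.44 on arrays 1 and 2 and had no value on arrays 3 and 4, so it was not tested. Both values were negative, 1.88-fold and 2.72-fold lower in MM. Cyp11a1, the side-chain cleavage enzyme that turns cholesterol into pregnenolone, read -0.63 and -0.70 on arrays 1 and 2, then 0.17 and 0.064 on arrays 3 and 4. The orientations did not overlap and had opposite signs. Its mean of -0.27 ± 0.46 (SD, n = 4) passed with the orientation term (limma adjusted p = 0.00881) and not without it (limma adjusted p = 0.396). Leaving out any array in turn also ended the call, with limma adjusted p between 0.0528 and 0.0626. As a ratio of IM over MM, Cyp11a1 stood at 1.59 on arrays 1 and 2, 0.92 on arrays 3 and 4 and 1.21 over all 4 arrays. Its orientation coefficient of -0.78 (limma adjusted p = 0.00991) exceeded its mean in size, so no tissue difference is read from 1 orientation.

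The GATA factors differed in how well they were measured. Gata4, a zinc finger factor needed for the genital ridge to start forming in the mouse, read 1.81 on array 1 and -5.36 on array 2, with no value on the others. The 2 arrays of the same orientation gave opposite signs, so no direction can be read for it. Gata6, its relative in adrenal cortex, heart and gut, read -0.11 and -0.23 on arrays 1 and 2, then -0.25 and -0.26 on arrays 3 and 4. All were slightly negative and the orientations did not overlap. The mean of -0.21 ± 0.07 (SD, n = 4) was 1.16-fold lower in MM (limma adjusted p = 0.0141), and the call was lost without array 3 (limma adjusted p = 0.094) and without array 4 (limma adjusted p = 0.0946). A ratio at or below that of Gata6 was held by 32.9% of all tested probes, and by 27.9% of those with no value at the floor.

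Tcf21 encodes a basic helix-loop-helix factor of the mesenchyme of kidney and gonad, which represses Nr5a1 in the mouse gonad. It read -0.52 and -0.42 on arrays 1 and 2, then -0.88 and -0.79 on arrays 3 and 4. The second orientation was lower on both arrays without overlap. The mean was -0.65 ± 0.22 (SD, n = 4), 1.57-fold lower in MM (limma adjusted p = 0.00164), with folds of 1.38 and 1.79 in the 2 orientations. Its orientation coefficient was 0.37 (limma adjusted p = 0.0328).

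Ordered from the lowest ratio, the tested genes ran Nr5a1, Mc2r, Nr0b1, Tcf21, Cyp11a1 and Gata6. The log2 ratio of Mc2r exceeded that of Nr5a1 by 0.00088 ± 0.31 (SD, n = 4 arrays), so this pair did not differ beyond its spread. Nr0b1 was above Mc2r by 0.37 ± 0.22 and Tcf21 above Nr0b1 by 0.66 ± 0.19, in this order on 4 of 4 arrays each. The ratio of Cyp11a1 was above that of Tcf21, and that of Gata6 above that of Cyp11a1, on 2 of 4 arrays each, and the order of these neighbours followed the orientation. A sign-flip permutation test over 4 arrays cannot reach 0.05, and none was run.

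**Figure D2:**
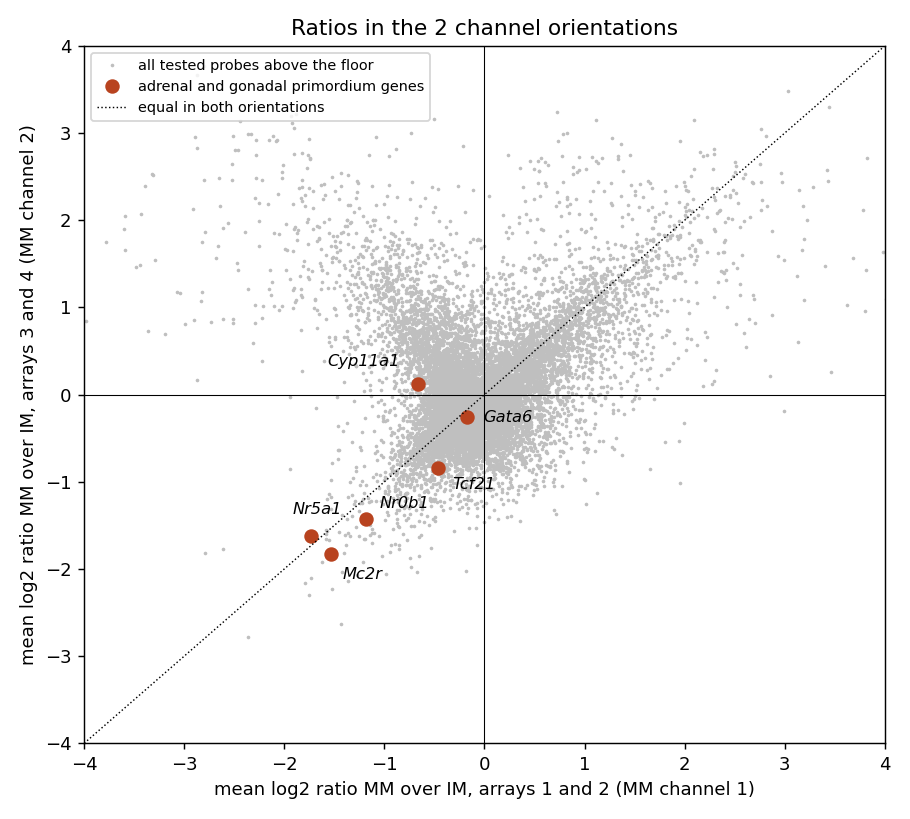
Mean log2 ratio of MM over IM on arrays 1 and 2 (horizontal axis) against that on arrays 3 and 4 (vertical axis), for 13191 tested probes above the floor (grey, of which 27 lie outside the axis limits of 4) and the 6 tested genes (red); the dotted line marks equal ratios. Nr5a1, Mc2r and Nr0b1 lie near the line in the lower left, and Cyp11a1 lies above 0 on the vertical axis alone.

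The probes whose values lay closest to those of Nr5a1 over the 4 arrays, by root mean square difference among 10868 candidate probes, were Wt1 (0.206), Fabp7 (0.222), St13 (0.233), Mc2r (0.27) and Kantr (0.287). Wt1, a zinc finger factor of coelomic epithelium, gonad and kidney mesenchyme, read -1.56, -1.60, -1.55 and -1.57 on arrays 1 to 4 and had the smallest difference. Fabp7, a fatty acid binding protein of neural progenitors, averaged -1.61, the chaperone cofactor St13 averaged -1.59 and the non-coding RNA Kantr averaged -1.51. Of the other genes of the 8, Nr0b1 differed from Nr5a1 by 0.545, Tcf21 by 1.07, Cyp11a1 by 1.45 and Gata6 by 1.47.

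Regulators of the adrenogonadal primordium outside the 10 genes went both ways. Of 31 tested genes, 13 were higher in MM, 12 were lower, 1 had probes that disagreed in direction and 5 did not pass. Of all tested probes, 23.8% were called higher and 38.1% lower. In every list a gene counted as called if any of its probes was called, while these shares count probes. Both fits called 10 higher and 6 lower (13.6% and 14.4% of all tested probes), and the median log2 ratio was 0.009. Wnt4, a Wnt ligand of kidney, adrenal and ovary, was 3.93-fold lower in MM, at -1.87 and -1.71 on arrays 1 and 2, then -2.18 and -2.13 on arrays 3 and 4 (limma adjusted p = 0.000378). Wt1 was 2.97-fold lower in MM (-1.57 ± 0.02, n = 4, limma adjusted p = 0.000302). Lhx9, a homeodomain factor of the gonadal ridge, read 0.20, -0.14, 0.12 and 0.073 on arrays 1 to 4 and did not pass (0.06 ± 0.15, limma adjusted p = 0.504). Nr4a1, an orphan nuclear receptor of steroidogenic cells and an early response gene, was higher in MM (1.51 ± 0.12, n = 4, limma adjusted p = 0.000345), as was the Hedgehog receptor Ptch1 (1.20 ± 0.05, n = 4, limma adjusted p = 0.000539) by the probe with values on all arrays.

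Genes that act around Star and Cyp11a1 in steroid synthesis had calls in both directions. Of 24 tested, 14 were lower, 2 of them with a value at the floor, 5 were higher, 1 had probes that disagreed in direction and 4 did not pass. All tested probes also leaned lower, at 38.1% called lower and 23.8% higher. Both fits called 4 of the 24 lower and 3 higher, beside 14.4% and 13.6% of all tested probes, and the median log2 ratio was -0.157, beside -0.082 over all tested probes. Akr1c18, which inactivates progesterone, was 1.62-fold lower in MM (-0.69 ± 0.07, n = 4, limma adjusted p = 0.00112), and Cyb5a, a cytochrome that assists steroid hydroxylation and lyase reactions, was 1.66-fold lower (-0.73 ± 0.26, n = 4, limma adjusted p = 0.00125). Hsd11b2, which inactivates glucocorticoids, was higher in MM, at 1.22 and 1.17 on arrays 1 and 2, then 0.90 and 0.99 on arrays 3 and 4 (limma adjusted p = 0.00064). The 2 probes of Acbd3, a partner of the mitochondrial protein Tspo, disagreed at 0.78 and -0.22.

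Some later enzymes of the pathway had values on arrays 1 and 2 alone. Hsd3b1 read -0.88 and -0.85 on arrays 1 and 2, Cyp17a1 read 0.89 and 0.53, and Cyp21a1 read -0.39 and -0.26, each with no value on the others. These 3, named outside the rule after their values were seen, make pregnenolone into progesterone, androgen precursors and corticosteroids. They shared with Star the absence of a value on arrays 3 and 4, and none was tested. Missing values on those arrays were common: 21461 probes had values on both arrays 1 and 2, and 14184 on all 4 arrays.

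**Figure D3:**
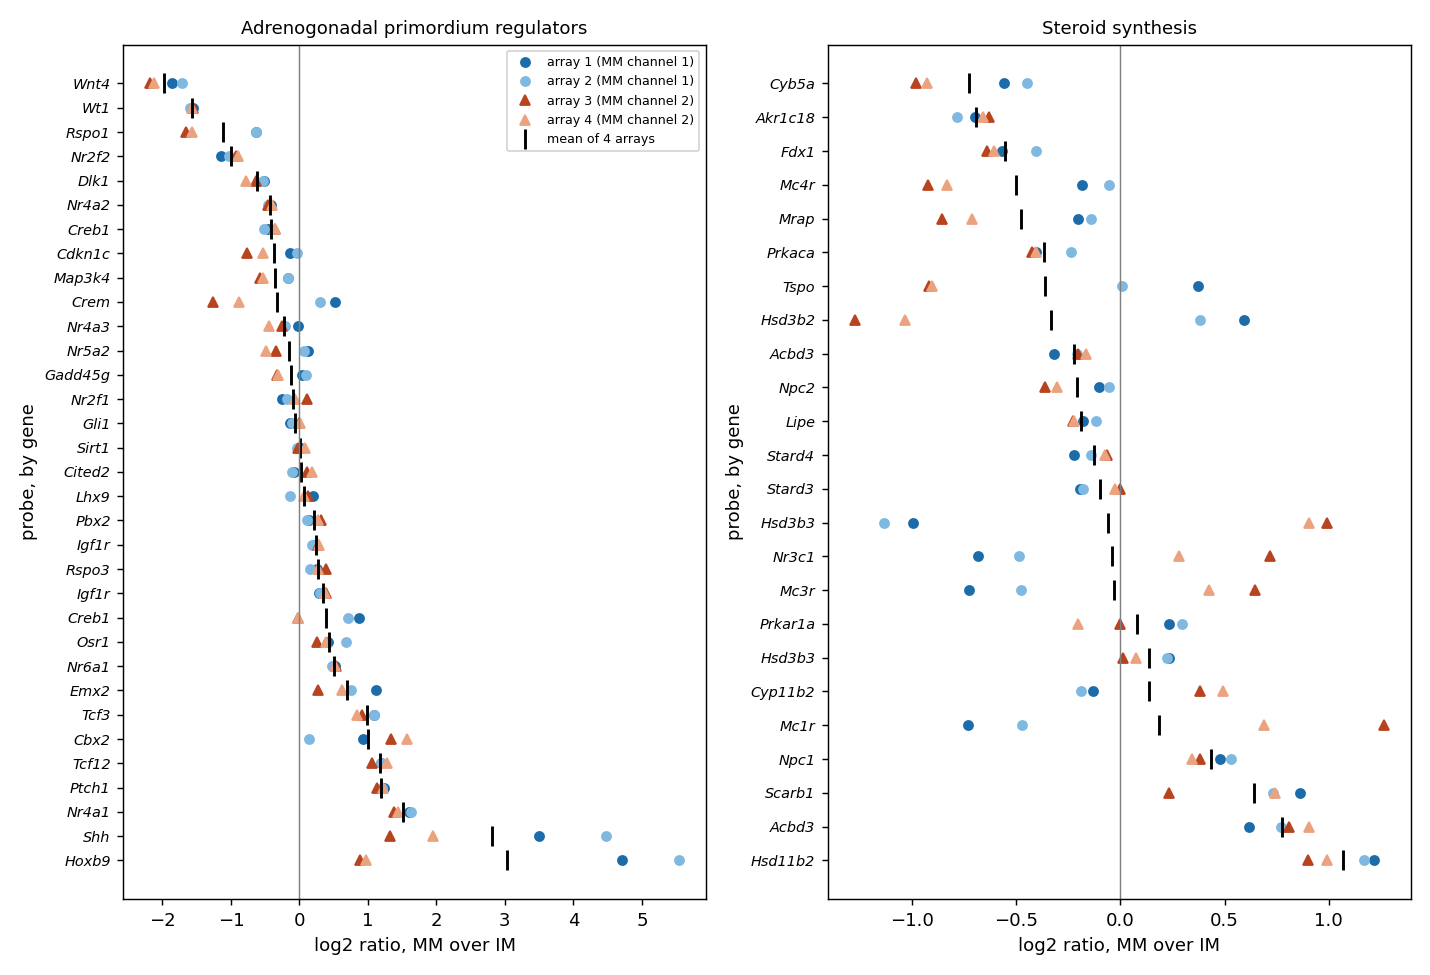
Log2 ratios of MM over IM (horizontal axis) of the tested probes above the floor for regulators of the adrenogonadal primordium (left) and for steroid synthesis (right), 1 line per probe ordered by mean; circles and triangles are the arrays of each orientation and black ticks the means. Wnt4 and Wt1 average -1.97 and -1.57 at the top of the left panel, and Hsd11b2 is the highest of the right panel at 1.07.

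Partners of the GATA factors and of Tcf21 had calls in both directions. Of 11 tested genes of the GATA family and its cofactors, 4 were higher and 4 lower in MM and 3 did not pass (median log2 ratio 0.03), with 3 higher and 2 lower in both fits. All tested probes had 23.8% called higher and 38.1% lower, and 13.6% and 14.4% in both fits. Gata3, of the nephric duct, averaged -0.35 ± 0.04, and the heart factor Nkx2-5 averaged 1.32 ± 0.45 (n = 4, limma adjusted p = 0.00339 and 0.00186). Lmo2, a bridging partner of GATA factors, was higher in MM (0.78 ± 0.36, limma adjusted p = 0.000859), and so was Trps1, an atypical GATA repressor (0.98 ± 0.69, limma adjusted p = 0.0027, and 0.0889 without the orientation term). Of 18 tested relatives and partners of Tcf21, 7 were higher, 4 lower, 1 had probes that disagreed in direction and 6 did not pass (median log2 ratio -0.01), with 5 higher and 4 lower in both fits. Its dimerisation partners Tcf3 (0.98 ± 0.13) and Tcf12 (1.18 ± 0.09) were higher in MM, and the related somite factor Tcf15 (-0.95 ± 0.21) was lower (limma adjusted p = 0.00063, 0.00103 and 0.000774).

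Genes of the early gonad also had calls in both directions. Of 15 tested, 9 were higher and 4 did not pass, while 2 were lower, 1 of these through floor values (median log2 ratio 0.206), beside 23.8% of all tested probes called higher and 38.1% lower. Both fits called 5 of the 15 higher and 1 lower, beside 13.6% and 14.4% of all tested probes. The BMP and activin receptors Acvr1 (1.89 ± 0.57) and Bmpr1a (0.98 ± 0.02) and the receptor Fgfr2 (0.99 ± 0.24) were higher (limma adjusted p = 0.000269, 0.000572 and 0.00125), as was the germline Tudor gene Tdrd1 (0.84 ± 0.05, limma adjusted p = 0.000859). Among 19 tested genes of the coelomic epithelium, in which the primordium forms, 6 were higher, 6 lower and 7 did not pass (median log2 ratio -0.022), with 3 higher and 4 lower in both fits. Besides Wt1, the retinaldehyde dehydrogenase Aldh1a1 (-0.92 ± 0.08) and the T-box factor Tbx18 (-0.86 ± 0.17) were lower, while Aldh1a2, the embryonic retinoic acid enzyme, was higher (0.59 ± 0.11; limma adjusted p = 0.000805, 0.000623 and 0.00162). A second probe of Tbx18 averaged -0.28.

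Markers of further cell types that may have been dissected along gave calls in both directions. Over all tested probes, 23.8% were called higher and 38.1% lower, and 13.6% and 14.4% in both fits. Of 12 tested markers of adrenal medulla and neural crest, 9 were lower in MM, 4 of them with values at the floor, 1 was higher and 2 did not pass. Both fits called 2 of them lower and 1 higher, and the list's median was 0.072 on arrays 1 and 2 and -1.33 on arrays 3 and 4. Phox2a, a factor of sympathetic neurons, averaged -0.99 ± 0.49 (limma adjusted p = 0.00165), with -0.58 on arrays 1 and 2 and -1.40 on arrays 3 and 4. The 1 marker called higher was Snai2, at 1.77 ± 0.80 (limma adjusted p = 0.0082). Of 10 tested germ cell markers, 5 were lower, 3 higher and 2 did not pass (4 lower and 2 higher in both fits), with Ifitm1 at -1.03 ± 0.10, Ifitm3 at -1.06 ± 0.09 and Sall4 at 2.44 ± 0.55 (limma adjusted p = 0.000563, 0.000723 and 0.000228). Of 13 tested gut endoderm markers, 7 were higher, 2 lower, both with values at the floor, 1 had probes that disagreed in direction and 3 did not pass (7 higher and 0 lower in both fits), with Afp at 1.86 ± 0.32 (limma adjusted p = 0.000533). Of 9 tested heart and cardiac muscle genes, 3 were higher, 5 lower and 1 did not pass (2 higher and 3 lower in both fits). Of 13 tested nephric duct genes 6 were higher, 4 lower and 3 did not pass (3 higher and 2 lower in both fits). Calb1 (2.06 ± 0.05) of the duct was higher and kidney cadherin Cdh16 (-1.40 ± 0.05) lower (limma adjusted p = 0.00025 and 0.000419). The part of these cells in the ratios of Nr5a1, Nr0b1 and Mc2r was not tested.

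**Figure D4:**
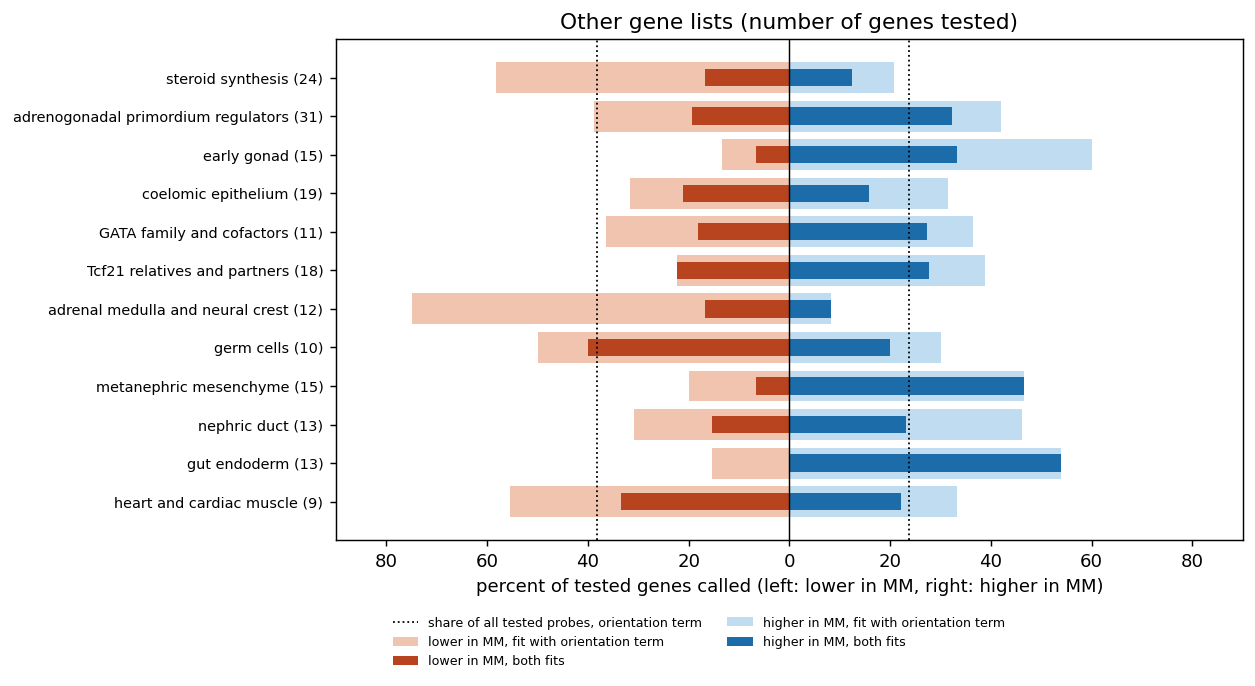
Percent of the tested genes of each list (number tested in brackets) called lower (left) or higher (right) in MM; pale bars are calls with the orientation term, dark bars calls in both fits, and the dotted lines the shares of all tested probes with the orientation term, 38.1% lower and 23.8% higher. Regulators of the primordium have calls on both sides, 12 lower and 13 higher of 31.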

How the data were processed

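RNA of MM and IM was compared on 4 two-colour arrays, 2 per channel orientation. The deposited values are log2 ratios. Per the labels' descriptions, spots were quantified with Imagene 5.5, the channels of arrays 3 and 4 were reversed for the dye swap, and a lowess curve on 20.0% of the data adjusted the control value, which was set to 10 where lower. Background correction and spot filters are not stated in the labels. Base 2 was taken because 98.9% to 100% of negative values fell on thousandths when 2 was raised to them (tolerance 0.01 thousandths).

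Probes with 4 values (14184 of 22702) were fitted in R 4.3.3 by limma 3.58.1, using an intercept and an orientation term, and p-values were adjusted by Benjamini-Hochberg with a threshold of 0.05. The residual comes from the arrays of the same orientation. Nothing in the labels tells separate RNA extracts from repeated ones, so the p-values reflect array-to-array spread that may be technical. Precision is limited by having 4 arrays. The fitting code was run on data simulated from the same model. That run checks the code and cannot tell whether repeats within an orientation were technical. Of all probes 17252 had 1 symbol, 156 several and 5294 none; names were updated through RefSeq GRCm38.p6.

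The 10 genes and the 12 lists were chosen with earlier results of these data known. Besides the 10 genes, the rule for naming took up to 4 called genes per list. These had the smallest p with the same sign on 4 arrays and no value at the floor. It also took Six2, Gdnf, Wt1, Lhx9 and Wnt4, and the 5 probes nearest to Nr5a1. The text does not name all of the list genes. Left out were, among others, Foxf2, Epcam, Trf, Crym and Robo2, higher in MM, and Tnnt2, Tnni1 and Sox2, lower in MM. Alternatives covered the orientation term, the arrays used, centring, scaling, floor and missing values, and array weights. Figures were drawn with matplotlib 3.10.9.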

Additional observations from a re-analysis of the deposited data

Results flagged for a closer look

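The ratios of 3 genes differed between the channel orientations. Cyp11a1 was negative on both arrays with MM in channel 1 and positive on both arrays with MM in channel 2, and the difference between orientations (arrays 1 and 2 minus arrays 3 and 4) was -0.78 on the log2 scale (limma adjusted p = 0.00991). The difference was 0.37 for Tcf21 (limma adjusted p = 0.0328) and 0.295 for Mc2r (limma adjusted p = 0.0258), with all 4 arrays negative for both. The median absolute difference between orientations over all tested probes was 0.338, and 44.6% of tested probes passed the same test. No array stood apart from the other 3 for any gene named in the text by Dixon's criterion. With 4 values per gene, 2 per orientation, the criterion can rarely set an array apart, so no conclusion is drawn from it.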

How the results depend on the processing

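Nr5a1, Nr0b1, Mc2r and Tcf21 kept their direction under 13 alternatives each and their side of the threshold under 11, with log2 ratios between -1.80 and -1.55 for Nr5a1, -1.44 and -1.18 for Nr0b1, -1.82 and -1.53 for Mc2r and -0.84 and -0.47 for Tcf21. The exceptions were arrays 1 and 2 alone and the averaging of each orientation to 1 value, where limma called 0 probes in either direction, 0 of the 10 genes' probes and 0 of the other lists; an unadjusted p under 0.05 was held by 9294 of 21461 and by 1526 of 14184 probes. Without the orientation term 3968 probes passed, 2036 lower and 1932 higher, and 80 of the other lists' probes in place of 141. Leaving out each array gave 5441 to 6790 calls, 3250 to 4179 lower and 2191 to 2718 higher, of 8779, 5408 and 3371 (5441 without array 3, 5707 without array 4), and 4 to 5 of the 6 genes. Cyp11a1 reversed to 0.117 on arrays 3 and 4 alone (limma adjusted p = 0.175), and Lhx9, which passed under no alternative, to -0.023 without array 1 (-0.023 to 0.148 over the arrays left out). Each array holds both tissues, so MM and IM were already paired within each ratio, and the fits used this pairing. The 4 arrays form 1 comparison in 2 orientations of 2 arrays each. Whether arrays of opposite orientation shared RNA is not stated, so no further pairing between arrays was used. The table holds no intensities, so what signal over background limits is unknown.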
